A study of Mus musculus with 3 samples.

Results

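Foxn1 and 6 further genes of cortical thymic epithelial identity (Trp63, Ccl25, Cd83, Tbata, Ly75 and Crip3) were followed by name through 3 epithelial populations of C57BL/6 mice. All 7 symbols were found, among 22609 in the table. The first population was cTEC, the epithelium of the thymic cortex, sorted from pooled thymi of 14 mice at 7 days of age as CD45-negative, EpCAM-positive, Ly51-positive cells that did not bind the lectin UEA1. The second was mTEC, the epithelium of the thymic medulla, sorted from the same 14 mice as CD45-negative, EpCAM-positive, Ly51-negative, UEA1-binding cells. The third was skinEC, keratinocytes of the trunk and back of 7 pooled newborn mice, sorted as EpCAM-positive and CD11c-negative cells, so that skin and thymus also differ in age. No mutation, transgene or treatment is named for any of them.

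The thymic epithelium depends on Foxn1, a forkhead transcription factor whose loss gives the nude mouse, which lacks both a working thymus and a normal coat. Foxn1 acts in the cortex and the medulla and is known to drive genes for attracting, specifying and selecting T cell precursors. The transcription factor p63, made by Trp63, is needed for stratified epithelia such as the epidermis and for the growth potential of thymic epithelial progenitors. Ccl25 is a chemokine that draws T cell precursors into the thymus through the receptor Ccr9. Cd83 is a surface protein that slows the turnover of MHC class II molecules on cortical epithelium. Ly75, also known as CD205, is an endocytic lectin receptor long used to mark the cortex. Tbata is a protein of thymus, brain and testis, and Crip3 is a small LIM domain protein first described in the thymus.

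Each population gave 1 library, so no difference has a replicate check and no test was made. In such bulk samples, fewer cells of a type and less RNA per cell cannot be told apart. Levels are RPKM, a read count divided by the length of the gene model and by the mapped reads of that library. The low values of receptor genes put the depth at about 56600000 reads in cTEC, 55500000 in mTEC and 55900000 in skinEC, where 3 reads on a gene of 1 kb are worth 0.0530, 0.0541 and 0.0537 RPKM. The depth of skinEC rests on 11 genes and is the least certain. A gene was called higher or lower at 4-fold on the log2(RPKM + 1) scale, which understates the ratios of low genes, and the 16869 genes reaching 1 RPKM in any library were compared. The sort labels were checked on defining genes. The cortical protease gene Psmb11 was at 261 RPKM in cTEC, 1.66 in mTEC and 0.0632 in skinEC. The medullary regulator gene Aire was at 1.20, 1129 and 0.148 RPKM in the same libraries, and the epidermal keratin gene Krt14 at 17.7, 229 and 10673 RPKM. Other markers separated less cleanly. Enpep, whose product is the sorted antigen Ly51, was at 45.0 RPKM in cTEC and 11.6 in mTEC. Of 9 measured epidermal markers, 2 were slightly higher in mTEC than skinEC but within 4-fold, Lor (38.0 and 30.3 RPKM) and Ivl (9.03 and 8.50 RPKM). By the 4-fold rule, 0 of the 9 were higher in mTEC and 6 were lower (16.8% and 4.2% of all genes).

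The stretches just upstream of the transcription start are shown for the 4 genes with an entry in the RefSeq promoter table (build GRCm38.p6), because Ccl25, Tbata and Ly75 are reported Foxn1 targets and were high together in cTEC. Ccl25 has 2 starts there. Each line gives the 250 bases before the start, 5′ to 3′ on the gene's strand. Capitals mark ACGC, the core of the published Foxn1 motif, on either strand, or its longer form GACGC where a G precedes it.

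Foxn1 (chr11:78386609-78386858, minus strand): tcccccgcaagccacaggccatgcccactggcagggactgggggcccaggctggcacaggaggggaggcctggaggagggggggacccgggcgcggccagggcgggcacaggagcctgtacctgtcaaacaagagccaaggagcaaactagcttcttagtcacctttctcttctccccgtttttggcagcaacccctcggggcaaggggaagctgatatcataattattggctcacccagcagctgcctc
Ccl25, outer start (chr8:4324960-4325209, plus strand): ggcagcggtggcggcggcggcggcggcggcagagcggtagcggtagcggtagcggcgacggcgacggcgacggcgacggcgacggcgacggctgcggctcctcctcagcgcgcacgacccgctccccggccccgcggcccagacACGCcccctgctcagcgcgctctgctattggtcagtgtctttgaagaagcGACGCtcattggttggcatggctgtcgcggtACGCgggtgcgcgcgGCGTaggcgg
Ccl25, inner start (chr8:4349338-4349587, plus strand): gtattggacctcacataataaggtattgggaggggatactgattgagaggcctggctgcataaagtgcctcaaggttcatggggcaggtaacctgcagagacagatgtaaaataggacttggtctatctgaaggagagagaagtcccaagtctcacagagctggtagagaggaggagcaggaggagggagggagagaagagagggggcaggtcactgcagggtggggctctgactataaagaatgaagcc
Tbata (chr10:61171714-61171963, plus strand): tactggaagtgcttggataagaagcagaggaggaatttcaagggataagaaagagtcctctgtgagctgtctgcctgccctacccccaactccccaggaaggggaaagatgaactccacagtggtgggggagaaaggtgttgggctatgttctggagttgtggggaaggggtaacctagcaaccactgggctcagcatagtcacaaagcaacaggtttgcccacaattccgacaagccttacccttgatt
Ly75 (chr2:60383274-60383523, minus strand): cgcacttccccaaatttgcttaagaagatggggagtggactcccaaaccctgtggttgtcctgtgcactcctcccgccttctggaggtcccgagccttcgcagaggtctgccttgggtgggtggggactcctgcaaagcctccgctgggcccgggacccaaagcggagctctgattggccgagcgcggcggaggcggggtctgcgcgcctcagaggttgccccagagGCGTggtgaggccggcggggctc

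The outer start of Ccl25 held 4 ACGC matches, 1 of them the longer GACGC, which began 56 bases before the start. Ly75 held 1 ACGC match, beginning 23 bases before its start. The windows of Foxn1, Tbata and the inner Ccl25 start held none of these letters. Of 32851 windows of this length in the table, 49.8% held ACGC and 22.6% held GACGC on either strand, so matches of this kind are common. GC content was 74.8% at the outer Ccl25 start and 51.6% at the inner one, 66.8% at Ly75, 63.2% at Foxn1 and 51.6% at Tbata. Trp63, Cd83 and Crip3 are named only.

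Foxn1 (Entrez 15218) was at 233 RPKM in cTEC, 69.5 in mTEC and 3.75 in skinEC. It was thus highest in the cortex and was present in all 3 libraries. By level it was number 206 of the 22609 entries in cTEC, number 1138 in mTEC and number 10200 in skinEC. The cTEC level was 3.36 times the mTEC level (log2 ratio 1.73, under the 4-fold rule) and 62.1 times the skinEC level (5.62). The mTEC level was 18.5 times that of skinEC (3.89).

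The relatives of Foxn1 had other patterns. Foxn2, Foxn3, Foxk1 and Foxk2, forkhead genes expressed in many tissues, all had log2 ratios between -0.11 and 0.60 for cTEC over mTEC. Foxn3 was at 12.0 RPKM in cTEC, 9.31 in mTEC and 26.9 in skinEC, and Foxk1 was at 14.4, 9.16 and 20.4 RPKM. Foxn4, the closest relative of Foxn1, is listed at 0 in cTEC and skinEC and had 5.40 RPKM in mTEC. By the 4-fold rule, 0 of the 6 family genes were higher in cTEC than mTEC and 1 (Foxn4) was lower. The shares of all genes were 2.69% higher and 15.2% lower.

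**Figure D1:**
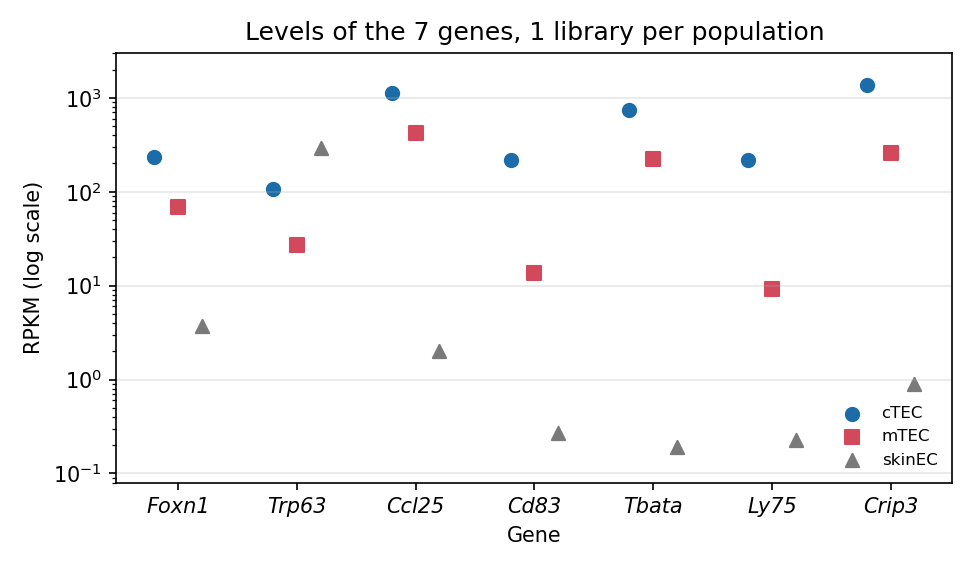
RPKM of each of the 7 genes (log axis) in cTEC (circles), mTEC (squares) and skinEC (triangles), 1 library each. Foxn1, Ccl25, Cd83, Tbata, Ly75 and Crip3 descend in that order of libraries, while Trp63 is highest in skinEC at 292 RPKM.

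Trp63 (Entrez 22061) was the exception among the 7 genes. It was at 107 RPKM in cTEC, 27.1 in mTEC and 292 in skinEC, so skin had the highest level and the medulla the lowest. The cTEC level was 3.94 times the mTEC level (log2 ratio 1.94), just short of the 4-fold rule, and 0.365 of the skinEC level (-1.45). The mTEC level was 0.0927 of the skinEC level (-3.38), past the rule. The gene makes long and short protein forms from separate promoters, and values per gene do not separate them.

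The other genes of the p53 group were divided. Trp53, the p53 tumour suppressor gene, had the order of Trp63 with smaller differences, at 127 RPKM in cTEC, 71.1 in mTEC and 149 in skinEC. Trp73, the third member of the family, had 2.18 RPKM in cTEC, 3.85 in mTEC and 32.8 in skinEC, and so was low in both thymic libraries. Of targets shared by the family, Perp, a desmosomal membrane protein gene, was at 103, 129 and 919 RPKM in cTEC, mTEC and skinEC. The cell cycle inhibitor gene Cdkn1a was at 11.4 RPKM in cTEC, 126 in mTEC and 108 in skinEC, a log2 ratio of -3.36 for cTEC over mTEC. Sfn, the epithelial 14-3-3 gene, was at 124, 110.02 and 524 RPKM in the same order, and Mdm2, which limits p53, at 41.9, 49.4 and 14.3 RPKM.

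Most genes reported under p63 control in epidermis were lower in cTEC than mTEC, unlike Trp63. Of 32 such genes, 9 were higher in cTEC by any amount. The 4-fold rule put 2 higher in cTEC than mTEC and 10 lower (2.69% and 15.2% of all genes), and 20 lay within 4-fold. Their median log2 ratio was -0.78, against -0.08 over all genes. The highest ratios were those of the Notch ligand gene Jag2 (197 RPKM in cTEC, 30.8 in mTEC, 236 in skinEC), the growth factor receptor gene Fgfr2 (87.2, 14.5 and 115 RPKM) and the laminin gene Lamb3 (70.9, 21.9 and 257 RPKM). These 3 had the order of Trp63 itself, with skin first and medulla last. The lowest were those of Krt14, of the differentiation factor gene Zfp750 (3.06 RPKM in cTEC, 42.0 in mTEC, 50.4 in skinEC) and of Krt5, the partner keratin gene of Krt14 (45.8, 475 and 15010 RPKM). Against skinEC, 0 of the 32 were at least 4-fold higher and 16 lower in cTEC (median -1.98). In mTEC, 0 were higher and 16 lower (median -2.00). The shares of all genes against skinEC were 6.3% higher and 5.82% lower in cTEC, and 16.8% and 4.2% in mTEC.

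**Figure D2:**
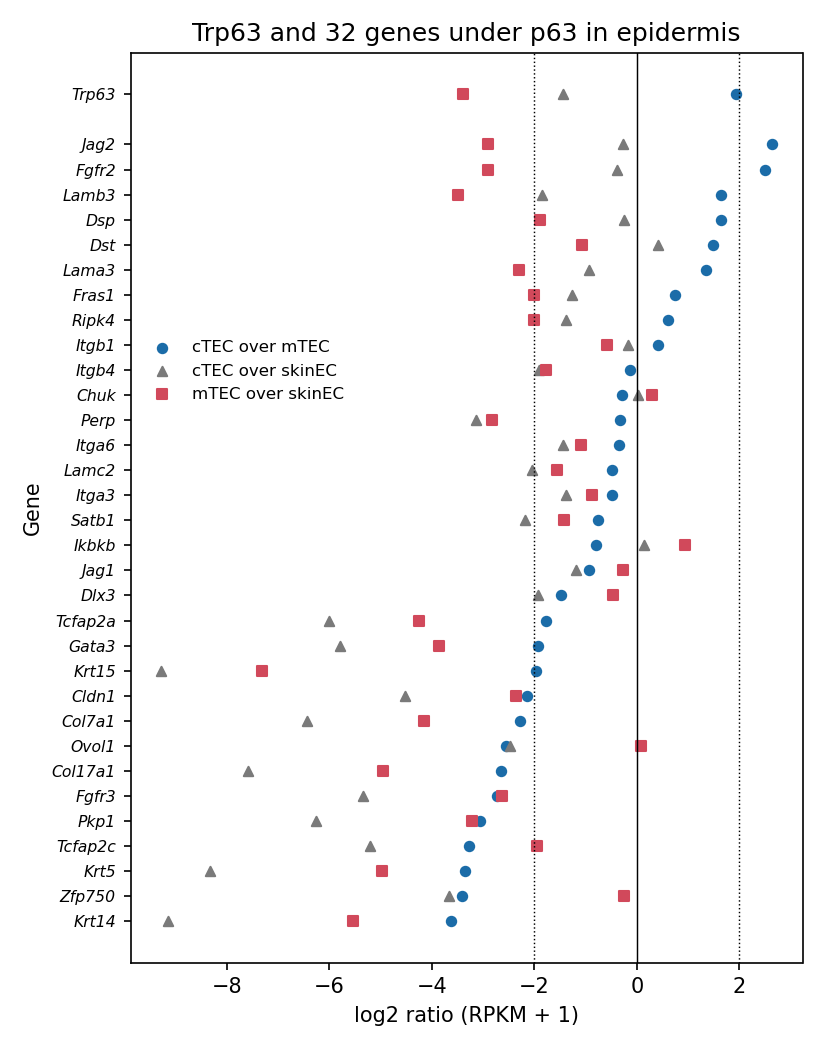
Log2 ratios (RPKM + 1) of Trp63 and of 32 genes reported under p63 in epidermis, for cTEC over mTEC (circles), cTEC over skinEC (triangles) and mTEC over skinEC (squares), with dotted lines at 4-fold. Trp63 lies at 1.94, -1.45 and -3.38, and the circles of the 32 genes run from 2.64 for Jag2 to -3.62 for Krt14.

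Ccl25 (Entrez 20300) was at 1118 RPKM in cTEC, 425 in mTEC and 2.01 in skinEC. It was among the most abundant entries of both thymic libraries, number 26 in cTEC and number 86 in mTEC. Its cTEC level was 2.63 times the mTEC level (log2 ratio 1.39), the smallest cortical excess of the 7 genes. The cTEC level was 557 times, and the mTEC level 212 times, the skinEC level.

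Genes that act with Ccl25 were read beside it. Ccrl1, which encodes a scavenging receptor that binds Ccl25, was at 177 RPKM in cTEC, 18.0 in mTEC and 92.0 in skinEC. Cxcl12, another chemokine for thymocytes, had 404 RPKM in cTEC, 3.78 in mTEC and 1.00 in skinEC, a larger cortical excess (log2 ratio 6.40) than that of Ccl25. Ccr9, singled out after its values were seen because it is the signalling receptor for Ccl25, was at 0.221 RPKM in cTEC, 1.57 in mTEC and 0.0205 in skinEC. Ccr7, a receptor gene of maturing thymocytes and dendritic cells, was at 1.29 RPKM in cTEC and 33.2 in mTEC and is listed at 0 in skinEC, and Cxcr4, the receptor gene for Cxcl12, was at 0.487, 5.43 and 24.5 RPKM in cTEC, mTEC and skinEC. Of 7 measured genes in this chemokine group, Ccl25 among them, 2 were at least 4-fold higher in cTEC than mTEC and 3 were lower. The shares of all genes were 2.69% higher and 15.2% lower.

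Ly75 (Entrez 17076) and Cd83 (Entrez 12522), the pair of surface proteins, were close in level and had the steepest differences between cortex and medulla. Ly75 was at 220 RPKM in cTEC, 9.19 in mTEC and 0.228 in skinEC. Cd83 was at 218 RPKM in cTEC, 13.8 in mTEC and 0.267 in skinEC. The cTEC level was 23.9 times the mTEC level for Ly75 (log2 ratio 4.44) and 15.9 times for Cd83 (3.89). Of all genes compared, 0.101% had a larger ratio than Ly75 and 0.225% a larger one than Cd83. Within a library, Cd83 was at 0.993 times the Ly75 level in cTEC, 1.50 times in mTEC and 1.17 times in skinEC.

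Both genes are also known from dendritic cells, so markers of other cells were read in the same libraries. The summed level of 16 myeloid and dendritic markers was 8.50 RPKM in cTEC, 851 in mTEC and 9.03 in skinEC. Of the 16, 13 reached 1 RPKM in any library, most of them in mTEC alone. At least 4-fold lower in cTEC than mTEC were 10, against 15.2% of all genes compared. The filter kept many of them through the library where they were high, so this count is a description only. Most of the mTEC sum came from the broad leukocyte gene Laptm5 (460 RPKM) and the lysozyme gene Lyz2 (283 RPKM), and the other 14 summed to 108 RPKM there. Dendritic genes of the list, singled out after their values were seen, were lower. Zbtb46 was at 0.797 RPKM in cTEC and 8.70 in mTEC, Flt3 at 0.159 and 2.76, Itgax, which encodes CD11c, at 0.180 and 1.07, and Clec9a at 0.0112 and 0.585. Xcr1 and Siglech, the 2 markers of the list at 0 in cTEC, were at 0.874 and 0.158 RPKM in mTEC. The summed level of 8 B cell markers was 1.37 RPKM in cTEC, 62.0 in mTEC and 0.343 in skinEC. Both sums were lower in cTEC than mTEC, while Cd83 and Ly75 were higher in cTEC. How much such cells add to the mTEC levels of Cd83 and Ly75 was not tested.

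Most partners of Cd83 in class II presentation were lower in cTEC than mTEC. March1, March8 and March9, planned for this group too, were not found by symbol and could not be read. Of the 11 genes found, Cd83, H2-DMa and Ciita (3 genes) were higher in cTEC by any amount. By at least 4-fold, only Cd83 was higher and 3 were lower (2.69% and 15.2% of all genes). The median log2 ratio was -1.35. After Cd83, the highest were H2-DMa, a peptide loading chain gene (275 RPKM in cTEC, 158 in mTEC, 3.94 in skinEC), and the class II regulator gene Ciita at a log2 ratio of 0.25. The lowest were H2-Ob, an inhibitor of peptide loading (0.662 RPKM in cTEC, 29.98 in mTEC, listed at 0 in skinEC), Cd86, a costimulatory ligand gene (0.111, 14.1 and 0.0423 RPKM), and H2-Oa, the partner chain of H2-Ob (43.6, 257 and 0.0171 RPKM). In both thymic libraries most of the group stood above skin, with 9 of 11 at least 4-fold higher in cTEC and 11 of 11 in mTEC. The shares of all genes were 6.3% in cTEC and 16.8% in mTEC.

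The mannose receptor family, to which Ly75 belongs, was divided. Mrc1, the macrophage mannose receptor gene, was at 0.369 RPKM in cTEC, 13.02 in mTEC and 0.0236 in skinEC. Mrc2, a collagen uptake receptor gene, was at 8.11, 2.70 and 8.21 RPKM, and Pla2r1, the phospholipase A2 receptor gene, stayed at or under 1.19 RPKM throughout. Of the 4, only Ly75 was at least 4-fold higher in cTEC than mTEC, and only Mrc1 was at least 4-fold lower (2.69% and 15.2% of all genes).

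Tbata (Entrez 65971) was at 743 RPKM in cTEC, 223 in mTEC and 0.190 in skinEC. Its cTEC level was 3.34 times the mTEC level (log2 ratio 1.74), and it ranked number 48 in cTEC and number 216 in mTEC. The cTEC level was 3905 times and the mTEC level 1169 times the skinEC level of 0.190 RPKM. On the log2(RPKM + 1) scale, which understates ratios to so low a level, the cTEC over skinEC ratio of Tbata (9.29) was under that of Crip3 (9.51). Tbata is reported to bind Uba3, a subunit of the enzyme that activates the ubiquitin-like protein Nedd8. The other 7 genes of that pathway, like Tbata, lay within 4-fold between cTEC and mTEC. Their log2 ratios ran from -0.52 for Ube2f to 0.94 for Cul1. Most genes compared lay there too, since 2.69% passed the rule toward cTEC and 15.2% toward mTEC. Uba3 itself was at 42.8 RPKM in cTEC, 25.6 in mTEC and 44.7 in skinEC.

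Crip3 (Entrez 114570) was the most abundant of the 7 genes in cTEC, at 1379 RPKM (number 18 of all entries), with 259 in mTEC and 0.891 in skinEC. Its cTEC level was 5.32 times the mTEC level (log2 ratio 2.41), just past the 4-fold rule, and 1548 times the skinEC level (9.51). Its relatives did not share this order. Crip1 was at 50.04 RPKM in cTEC, 342 in mTEC and 60.6 in skinEC, so that it ran opposite to Crip3 between cortex and medulla. Crip2 was at 150 RPKM in cTEC, 57.1 in mTEC and 141 in skinEC. Of the related LIM genes, Csrp1 was at 138, 121 and 218 RPKM, Csrp2 at 19.8, 21.0 and 14.8 RPKM, and Csrp3, known from striated muscle, at 0.0389, 3.24 and 0.0394 RPKM.

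Set side by side, all 7 genes were higher in cTEC than mTEC, and Ly75, Cd83 and Crip3, so 3 of 7, passed the 4-fold rule. The median log2 ratio of the 7 was 1.94. Over all genes, 2.69% passed that rule toward cTEC and 15.2% toward mTEC, with a median of -0.08. With a pseudocount of 0.01 RPKM these shares were 3.92% and 27.7%, and on the TPM scale 3.21% and 21.4%. Foxn1, Trp63, Ccl25 and Tbata formed the rest, at 2.63 to 3.94 times the mTEC level. Against skinEC, 6 of 7 were at least 4-fold higher in cTEC, where 6.3% of all genes were higher and 5.82% lower (9.73% and 5.68% on the TPM scale, 16.3% and 10.7% with a pseudocount of 0.01 RPKM). In mTEC 6 of 7 were at least 4-fold higher than in skinEC and Trp63 was lower, where 16.8% of all genes were higher and 4.2% lower (25.6% and 3.41% on the TPM scale, 30.5% and 5.75% with that pseudocount). The comparisons share libraries, so their counts are not independent.

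**Figure D3:**
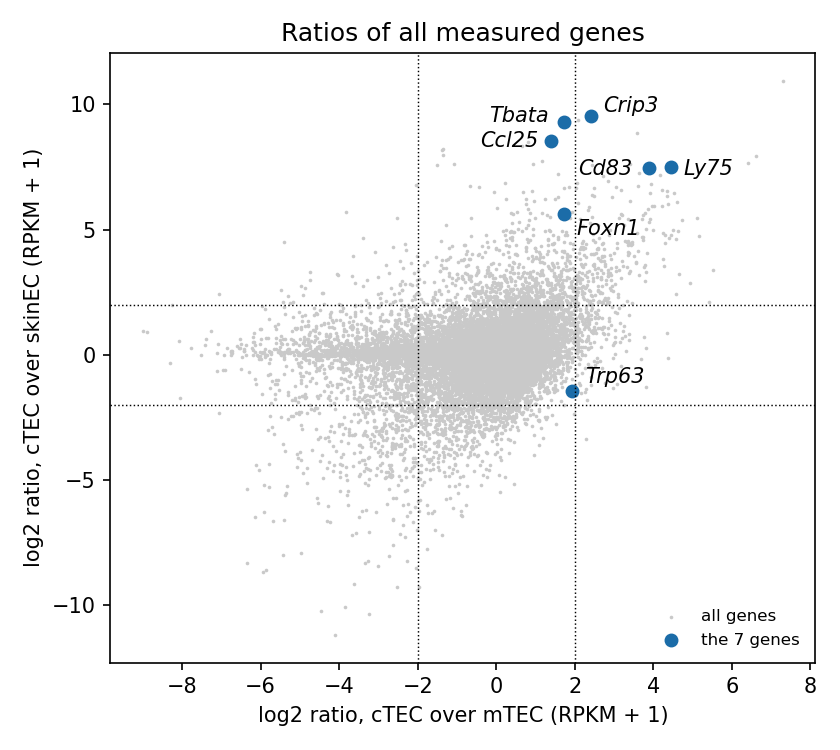
Log2 ratio of cTEC over mTEC (horizontal) and of cTEC over skinEC (vertical), both on RPKM + 1, for 16869 genes (grey) and the 7 genes (blue), with dotted lines at 4-fold. Crip3, Cd83 and Ly75 lie past 4-fold on both axes, Foxn1, Tbata and Ccl25 on the vertical axis alone, and Trp63 on neither.

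The level of a gene relative to Foxn1 in the same library does not depend on how libraries are scaled. Tbata was at 3.19 times Foxn1 in cTEC and 3.20 times in mTEC. Trp63 was at 0.457 and 0.389 of Foxn1, and Ccl25 at 4.79 and 6.11 times Foxn1, in cTEC and mTEC. The cTEC relation to Foxn1 was 0.995 times the mTEC one for Tbata, 1.17 times for Trp63 and 0.784 times for Ccl25. The cTEC over mTEC folds of these 3 genes were thus near that of Foxn1, with 1 library on each side. Crip3 was at 5.91 times Foxn1 in cTEC and 3.73 times in mTEC. Cd83 was at 0.936 of Foxn1 in cTEC and 0.198 in mTEC, and Ly75 at 0.943 and 0.132, so the relation differed by 4.73 and 7.13 times. In skinEC, all of these but Trp63 were under the Foxn1 level, from 0.0507 for Tbata to 0.534 for Ccl25, while Trp63 was at 77.8 times Foxn1.

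**Figure D4:**
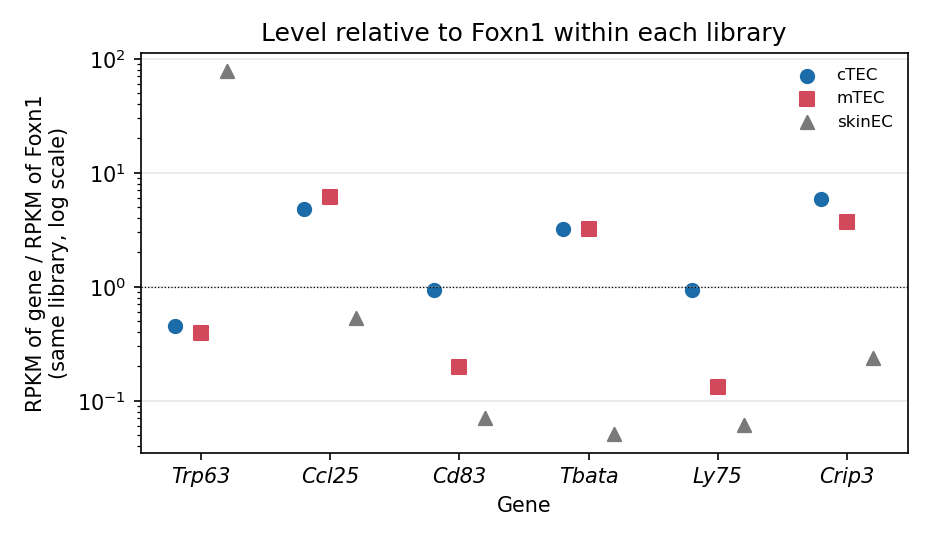
RPKM of each gene divided by the RPKM of Foxn1 in the same library (log axis) for cTEC (circles), mTEC (squares) and skinEC (triangles). The circle and square of Tbata lie at the same height (3.19 and 3.20), while those of Ly75 lie at 0.943 and 0.132.

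The amount of each gene in mTEC was set against what other cortical genes left there. Psmb11, Prss16 (a thymus-specific protease gene) and Cxcl12 were in mTEC at 0.637%, 0.609% and 0.936% of their cTEC levels. The cortical marker genes Ctsl, which encodes cathepsin L, and Dll4, the Notch ligand that specifies T cells, were at 5.32% and 9.001%. Of the 7 genes, Ccl25 was at 38.0%, Tbata at 29.9%, Foxn1 at 29.8%, Trp63 at 25.4%, Crip3 at 18.8%, Cd83 at 6.31% and Ly75 at 4.18%. All 7 were therefore in mTEC at a larger share of the cortical level than Psmb11, Prss16 or Cxcl12. They overlapped the other cortical markers, with Ly75 under Ctsl, and Ly75 and Cd83 under Dll4. Enpep, at 25.7%, was above Trp63, Crip3, Cd83 and Ly75. In the other direction, Aire was in cTEC at 0.106% of its mTEC level.

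**Figure D5:**
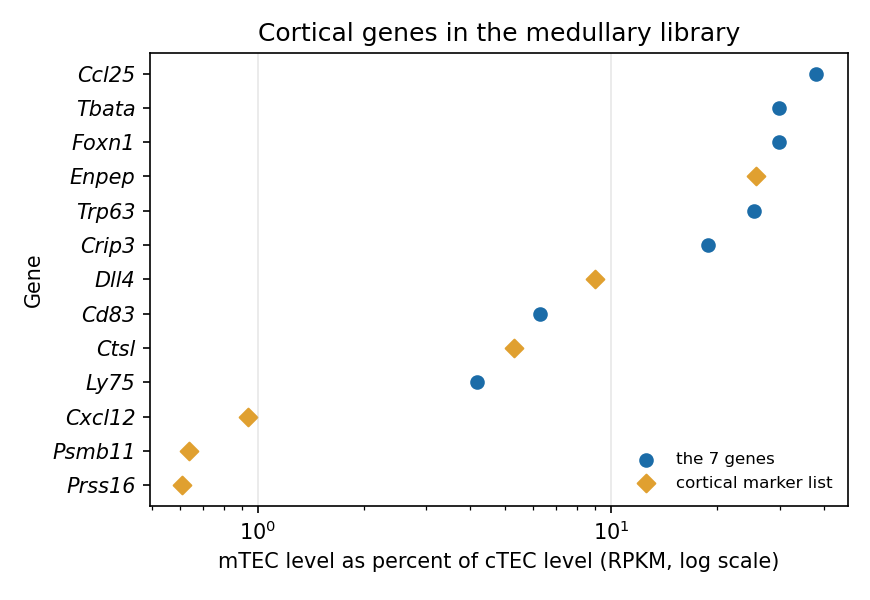
Level in mTEC as a percent of the level in cTEC (log axis) for the 7 genes (circles) and the 6 cortical marker genes (diamonds), 1 library each. Ccl25 is highest at 38.0%, Prss16 lowest at 0.609%, and Enpep, whose product is the sorted antigen Ly51, lies at 25.7%.

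Levels in skinEC were low for all but Trp63, and the reads behind them were estimated from coding transcript lengths of a later annotation. Foxn1 in skinEC corresponded to about 675 reads and Ccl25 to 92.3 to 119 reads. Ly75 corresponded to 66.0 to 88.1 reads, Crip3 to 36.6 to 51.5 reads, Cd83 to about 37.0 reads and Tbata to 7.41 to 16.0 reads. Each exceeds 3 reads, and the folds of Tbata against skinEC rest on the fewest. The hair follicle, where Foxn1 also acts in skin, was read through 11 genes reported under Foxn1 in hair and nail. Of the 8 measured, 0 were at least 4-fold higher and 4 lower in cTEC than skinEC (6.3% and 5.82% of all genes). In mTEC, 2 were higher and 2 lower than in skinEC (16.8% and 4.2% of all genes). Krt71, a hair root sheath keratin gene, was at 0.0163 RPKM in cTEC, 24.1 in mTEC and 3.69 in skinEC, Notch1 at 9.74, 23.5 and 108 RPKM, and the Wnt effector gene Lef1 at 6.66, 2.73 and 14.1 RPKM.

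Genes reported as controlled by Foxn1 in thymic epithelium, a list of 13 that includes Ccl25, Cd83, Tbata and Ly75, were mostly higher in the cortex. Of these, 9 were at least 4-fold higher in cTEC than mTEC and 1, Krt5, was lower (2.69% and 15.2% of all genes). Their median log2 ratio was 3.41. The highest were Prss16 (7.30), Psmb11 (6.62) and Cxcl12 (6.40), and above Krt5 (-3.35) the lowest were Krt8, a simple epithelial keratin gene (1.17), and Ccl25 (1.39). The ratio of Foxn1 itself, 1.73, missed the rule, so it lay under those of these 9 by construction. Of the rest, Tbata was at 1.74, and Ccl25, Krt8 and Krt5 lay under Foxn1. By the same rule, 11 of the 13 were higher and 1 lower in cTEC than skinEC (6.3% and 5.82% of all genes). In mTEC, 8 were higher and 2 lower than in skinEC (16.8% and 4.2% of all genes). In a list of 14 cortical epithelial genes that shares members with it, 9 were at least 4-fold higher in cTEC than mTEC and 1 was lower, the growth factor gene Tgfb2 (1.23 RPKM in cTEC, 12.3 in mTEC, 26.0 in skinEC).

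Factors that act before or beside Foxn1 in forming the thymus were divided. Of 12 measured, 3 were at least 4-fold higher in cTEC than mTEC and 1 was lower (2.69% and 15.2% of all genes). The median log2 ratio was 0.81. Pax1, a paired box factor gene of the thymic primordium, was at 514 RPKM in cTEC, 41.6 in mTEC and 0.109 in skinEC, the signal gene Wnt4 at 152, 17.9 and 147 RPKM, and Hoxa3 at 15.5, 1.90 and 4.83 RPKM. The homeobox gene Six4 (14.4 RPKM in cTEC, 6.06 in mTEC, 0.0353 in skinEC) and the coactivator gene Eya1 (33.5, 39.0 and 0.740 RPKM) lay within 4-fold between the thymic libraries. Tbx1, a factor of the pharyngeal pouches, was at 0.805 RPKM in cTEC, 3.08 in mTEC and 28.2 in skinEC. By the same rule, 5 of the 12 were higher and 1 lower in cTEC than skinEC (6.3% and 5.82% of all genes). In mTEC, 5 were higher and 3 lower than in skinEC (16.8% and 4.2% of all genes).

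The genes most like each of the 7 were found by the distance between log2(RPKM + 1) values centred over the 3 libraries, among 9581 named genes reaching 10 RPKM in any library. With 3 points, such likeness is a description only. Nearest to Foxn1 were Igdcc4, an immunoglobulin superfamily gene (74.9 RPKM in cTEC, 19.1 in mTEC, 0.449 in skinEC; distance 0.13), Enpep (0.23), the immunoproteasome gene Psmb10 (580, 226 and 12.0 RPKM; 0.27), the homeobox gene Six2 (0.33) and the scaffold gene Akap12 (0.34). Nearest to Trp63 were Jub (62.4 RPKM in cTEC, 14.2 in mTEC, 167 in skinEC; 0.08), the thyroid hormone receptor gene Thra (0.09), the adenosine kinase gene Adk (0.18), the fatty acid oxidation gene Acaa2 (0.18) and the fibulin gene Fbln1 (0.18).

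By distance from Foxn1 over all 3 libraries, Cd83 was in place 188 and Ly75 in place 288. Ccl25 (517), Crip3 (771), Tbata (820) and Trp63 (8914) came after them. Of the other 5 genes, Ly75 and Cd83 found each other. Tbata, Crip3 and Ccl25 formed a separate group, though Crip3 was only in place 7 for Ccl25. Nearest to Ly75 were Serpinf1 (158 RPKM in cTEC, 7.78 in mTEC, 0.0959 in skinEC; distance 0.23), Cd83 (0.42), Wscd1 (0.49), the thymic stromal transporter gene Slc46a2 (0.58) and Nkain4 (0.65). Nearest to Cd83 were Slc46a2 (563, 44.2 and 2.69 RPKM; 0.18), Serpinf1 (0.38), Ly75 (0.42), Dll4 (0.48) and Nkain4 (0.50). The keratin gene Krt18 was nearest to Tbata (0.26) and to Crip3 (0.23), at 3549 RPKM in cTEC, 833 in mTEC and 4.30 in skinEC. Tbata and Crip3 were in second place for each other (0.48). Ccl25 had Bpifa1 first (0.46) and Tbata second (0.53), then the acetylcholinesterase gene Ache (0.53), Krt8 (0.57) and Krt18 (0.64), and both Tbata and Crip3 had Ccl25, Bpifa1 and Ache in the places after.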

How the data were processed

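Messenger RNA was measured in 3 libraries, 1 per population. The deposited values are RPKM per gene, made by the authors, per the file headers. Build mm9 and the software CASAVA 1.8.2 are listed without their role, per the submitters' processing notes. Overlapping genes are uncertain, since aligner, gene annotation and strandedness were not given in the sources used here.

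The table had 22663 rows and 22609 symbols. Where a symbol had several rows (47 symbols), the one of largest total was used. Another 11 symbols read as dates in the table and stay unnamed. Older symbols were matched by Entrez number through RefSeq (GRCm38.p6). Depth was the read number at which low values of olfactory, vomeronasal, trace amine and bitter taste receptor genes came out whole within 0.02 reads (76.2% of 424 in mTEC, 63.6% of 44 in cTEC, 45.5% of 11 in skinEC), with GENCODE M21 coding lengths. How far these depths lie from the true read numbers was not tested.

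Ratios used a pseudocount of 1 RPKM over genes reaching 1 RPKM in any library, in Python 3.11.15 with pandas 2.3.3. The 7 genes, the 12 gene lists and the 11 marker lists were chosen with earlier results of these data known, and 3 genes of the lists are not reported here. Named were the 7 genes, the 5 nearest to each, all genes of lists up to 8, and from longer lists the 3 highest and 3 lowest cTEC over mTEC ratios at 10 RPKM or more. The alternatives tried were other pseudocounts, filters, scalings, fold rules and the sum of repeated rows. With no replicates, no p-value was computed.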

Additional observations from a re-analysis of the deposited data

How the results depend on the processing

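Each of the 21 log2 ratios of the 7 genes was recomputed under 8 alternatives, and all 168 values kept their direction and their side of the 4-fold rule. The alternatives were pseudocounts of 0.1 and 0.01 RPKM, no filter, a filter at 5 RPKM, the TPM scale, that scale without the 50 largest entries, median ratio scaling, and summing the rows of a symbol. Of these, no filter, the 5 RPKM filter and summed rows cannot change the ratio of a gene with 1 row, so 63 of the values were fixed by construction and 105 under the other 5 alternatives were not. For cTEC over mTEC, the ratio of Foxn1 ranged from 1.45 to 1.77, that of Trp63 from 1.66 to 1.99 and that of Crip3 from 2.12 to 2.44. Counts of the 7 genes past the rule moved under a 2-fold rule alone. All 7 were then higher in cTEC than mTEC, against 3 at 4-fold, and 1 (Trp63) was lower in cTEC than skinEC, against 0. At 2-fold, 10.9% of all genes were higher and 30.8% lower in cTEC than mTEC. Against skinEC, 15.4% were higher and 14.3% lower in cTEC at 2-fold. Shares of all genes at 4-fold moved under other pseudocounts and scalings too, and that lower in cTEC than mTEC was 11.4% to 27.7%, that higher in mTEC than skinEC 12.5% to 30.5%, over the alternatives. Median ratio scaling set the median of all genes at -0.33 for cTEC over mTEC, against -0.08 for RPKM as deposited. For mTEC over skinEC it was 0.56 with that scaling and 0.47 on the TPM scale, against 0.16. Ratios to skinEC of genes under 1 RPKM there depend most on the pseudocount, as for Tbata in cTEC over skinEC (9.29 to 11.9). No paired analysis was possible because each population has 1 library.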

Other observations

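The protein-coding genes that flank the 7 genes in RefSeq (GRCm38.p6) had levels of their own. Beside Foxn1, Unc119, which encodes a lipid-binding trafficking protein, was at 122 RPKM in cTEC, 11.2 in mTEC and 27.0 in skinEC, and the dicarboxylate transporter gene Slc13a2 was at 22.2, 26.2 and 0.0245 RPKM. Beside Crip3, the anion transporter gene Slc22a7 was at 26.5 RPKM in cTEC, 9.09 in mTEC and listed at 0 in skinEC. Beside Tbata, Sgpl1, the sphingosine phosphate lyase gene, was at 298 RPKM in cTEC, 369 in mTEC and 70.1 in skinEC. Beside Ly75, the lectin gene Cd302 was at 2.26, 1.32 and 0.612 RPKM and Pla2r1 at 0.647, 1.19 and 0.286 RPKM, both far under Ly75 in cTEC. Markers of thymocytes summed to 25.8 RPKM in cTEC, 75.5 in mTEC and 74.7 in skinEC over 14 genes, of which Bcl11b gave 53.7 RPKM in skinEC.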
